A study of Mus musculus with 12 samples.

Results

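Nptx1, Smpd3 and Angpt1 were, above a minimum average level, the 3 genes that fell the most when WT mouse macrophages were exposed to particulate matter, and they are described here across all groups of the experiment. They were picked by their own measured change. Among genes called lower in PM-treated than in vehicle-treated WT cells (1.13% of genes tested), with an average CPM (counts scaled to the size of the library) of at least 5 over the 4 libraries compared and no overlap between the 2 groups, their decreases were the largest. They are 3 of 48795 genes listed in the count files and of 11228 genes that were tested. The cells were bone marrow-derived macrophages (BMDMs), grown from bone marrow of young adult male mice with M-CSF, and their RNA was sequenced in 12 libraries, 2 in each of 6 groups. WT cells carried the strain label C57BL/6, which the methods give as C57BL/6NJ, and Acod1-/- cells came from the C57BL/6NJ-Acod1em1(IMPC)J/J line, a knockout of the gene for the enzyme that makes itaconate. Each genotype received vehicle (labelled Control), PM (urban dust at 20 μg/cm2) for 24 hours, or OI (4-octyl itaconate, a form of itaconate that enters cells) at 0.25 mM for 2 hours before the same PM. No group received OI without PM. The sources used here do not say whether the 2 libraries of a group came from separate mice or cultures, so p-values measure only the spread between these libraries.

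The 3 genes act in different settings. Nptx1 encodes neuronal pentraxin 1, a secreted protein of the pentraxin family known mainly from synapses, where it gathers AMPA-type glutamate receptors. Smpd3 encodes neutral sphingomyelinase 2, a membrane enzyme that splits sphingomyelin into ceramide and phosphocholine and is known for its part in the release of exosomes and in bone mineralization. Angpt1 encodes angiopoietin 1, a secreted ligand that activates the receptor Tie2 (gene Tek) on endothelial and some blood-forming cells and stabilizes vessels.

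Total counts ran from 33616577 to 36817898 per library (median 34480636). Values below are CPM after TMM scaling, which corrects for differences in library composition. A gene was tested if its CPM was above 1.5 in at least 2 libraries, and it was called a differentially expressed gene (DEG) where the adjusted p was at most 0.05 and the change at least 2-fold. All 3 genes passed the filter, Nptx1 in each of the 12 libraries, and Smpd3 and Angpt1 in the 8 vehicle and PM libraries and in 0 of the 4 OI+PM libraries. Macrophage markers were high throughout, with all 8 of 8 above 1.5 CPM and a summed level of 14280 to 27340 CPM. Lyz2 led this sum, with group means of 9129 to 19620 CPM. With OI before PM in Acod1-/- cells, the mean of Fcgr1 went from 118.8 to 26.9 CPM and that of Cd68 from 1384 to 1377 CPM. Reads of Acod1 were present in the Acod1-/- libraries, at 94.1 and 107.6 CPM after PM against 170.3 and 181.3 CPM in WT. The genotypes differed in Acod1 by a log2 fold change of -0.80 after PM (edgeR quasi-likelihood test, adjusted p = 0.0807), and counts per gene do not show which exons these reads came from. Replicates stood further apart in WT OI+PM cells than in the other groups, with a median absolute log2 difference over genes of 0.253 against 0.0513 to 0.165.

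The 3 genes lie on different chromosomes, all on the minus strand of GRCm38, and have nearly the same exonic length (GENCODE vM21). Nptx1 (ENSMUSG00000025582.4) spans chr11:119538719-119547753, with 5217 bases of exon and no exon shared with another counted gene. Smpd3 (ENSMUSG00000031906.9) spans chr8:106252548-106337988, with 5232 exonic bases, of which 247 at its 3′ end also belong to Prmt7, a protein arginine methyltransferase gene on the opposite strand. Angpt1 (ENSMUSG00000022309.8) spans chr15:42424723-42676977, with 5205 exonic bases, of which 737 at its 5′ end also belong to the antisense RNA gene Gm17473. Whether reads were counted by strand is not given in the sources used here, so counts of the shared stretches are uncertain.

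Of the bases that Angpt1 shares with Gm17473, 221 code for protein, and they are shown because a read from this stretch belongs to either gene unless its strand is known. They are the start of the coding sequence in exon 1 of Angpt1-201 (GENCODE transcript, chr15:42676241-42676461, minus strand), with the start codon in capitals.
Angpt1 exon 1: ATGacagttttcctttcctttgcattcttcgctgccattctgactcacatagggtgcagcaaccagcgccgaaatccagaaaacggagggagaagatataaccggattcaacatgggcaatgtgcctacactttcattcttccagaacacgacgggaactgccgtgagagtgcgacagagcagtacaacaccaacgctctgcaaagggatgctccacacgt
Gm17473 had between 0 and 2 counts in every library, while Angpt1 had between 2 and 418. The antisense gene was too low to be tested.

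Nptx1 fell in both steps, from vehicle to PM and from PM to OI+PM, in both genotypes. In WT cells, its level was 81.6 and 87.6 CPM with vehicle, 17.97 and 15.7 CPM after PM, and 5.06 and 3.69 CPM after OI+PM. In Acod1-/- cells, the libraries gave 123.4 and 128.5 CPM with vehicle, 22.7 and 26.8 CPM after PM, and 6.10 and 6.68 CPM after OI+PM. None of the 6 groups overlapped. Among all tested genes, the libraries were likewise lower without overlap for 35.4% after PM and 29.4% with OI before PM in WT cells, and for 38.8% and 37.7% in Acod1-/- cells. The decrease after PM in WT cells, a log2 fold change of -2.33 (SE 0.127), is the value that chose the gene and is a description. In Acod1-/- cells, whose levels the rule did not compare, Nptx1 fell after PM to 19.6% of its vehicle level. This was a log2 fold change of -2.35 (SE 0.125, edgeR adjusted p = 9.15e-07). With OI before PM, it was lower again by a log2 fold change of -1.95 (SE 0.138, edgeR adjusted p = 2.04e-06), which left 5.08% of the vehicle level.

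**Figure D1:**
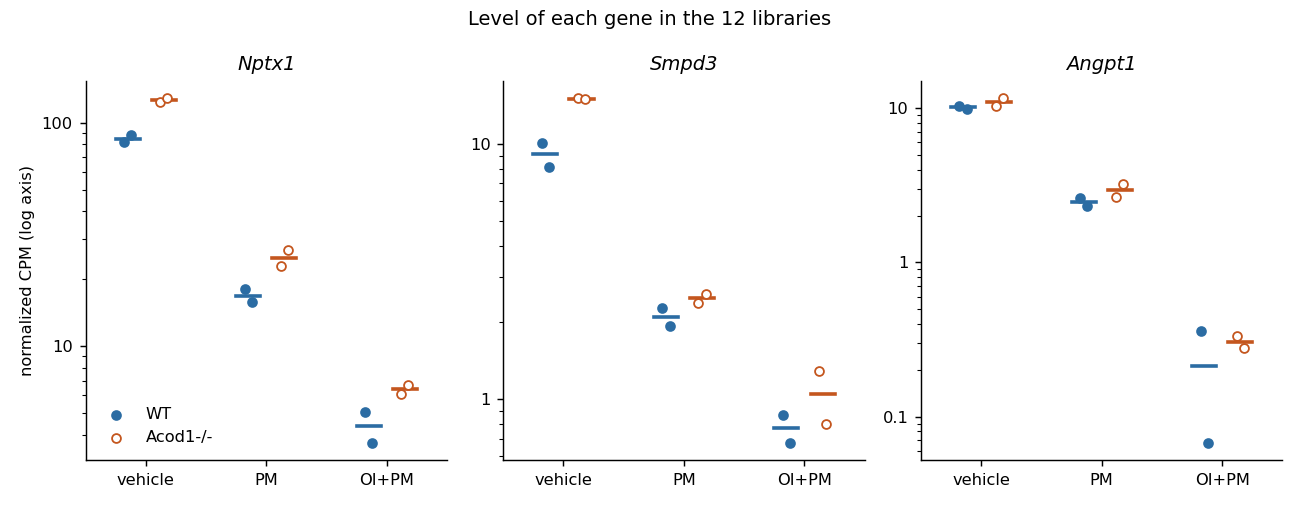
Normalized CPM of Nptx1, Smpd3 and Angpt1 (log axis, a separate scale for each gene) by treatment, with 1 point per library (WT filled, Acod1-/- open) and a line at the mean of 2 libraries. The points step down from vehicle to PM to OI+PM in each panel, from 123.4 and 128.5 to 6.10 and 6.68 CPM for Nptx1 in Acod1-/- cells, and the widest gap between replicates is that of Angpt1 in WT OI+PM cells, at 0.359 and 0.0677 CPM.

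Smpd3 followed the same order of groups at a lower level. WT libraries gave 10.1 and 8.09 CPM with vehicle, 2.29 and 1.93 CPM after PM, and 0.869 and 0.677 CPM after OI+PM. Acod1-/- libraries gave 15.1 and 15.02 CPM with vehicle, 2.38 and 2.59 CPM after PM, and 1.29 and 0.801 CPM after OI+PM. The treatments did not overlap within a genotype, whereas the OI+PM libraries of the 2 genotypes did. In each step, 29.4% to 38.8% of all tested genes were likewise lower without overlap. For vehicle and PM in WT cells the rule required it. In WT cells the decrease after PM was a log2 fold change of -2.11 (SE 0.175), again the value behind the choice. In Acod1-/- cells, Smpd3 fell to 16.5% of its vehicle level after PM (log2 fold change -2.60, SE 0.168, edgeR adjusted p = 3.23e-06). It was below 1.5 CPM in every OI+PM library, so its OI step was tested through the groups where it is high. OI lowered it further by a log2 fold change of -1.24 (SE 0.231, edgeR adjusted p = 0.00205). Without the second Acod1-/- OI+PM library, this change was -0.94 and no longer reached 2-fold.

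Prmt7, the gene that shares the 3′ end of Smpd3, was called in none of these comparisons. Its log2 fold change in Acod1-/- cells was -0.19 after PM (edgeR adjusted p = 0.185) and -0.14 with OI before PM (edgeR adjusted p = 0.312). Prmt7 had 721 to 1163 counts per library. If its reads were spread evenly over its exons, 29.1 to 33.3 of them would come from the shared stretch in the 4 OI+PM libraries. Smpd3 had 20 to 43 counts in these libraries. The part of such reads in the lowest Smpd3 levels was not tested.

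Angpt1 had the largest total decrease of the 3. In WT cells its level was 10.3 and 9.93 CPM with vehicle, 2.63 and 2.31 CPM after PM, and 0.359 and 0.0677 CPM after OI+PM. In Acod1-/- cells it was 10.3 and 11.6 CPM with vehicle, 2.65 and 3.22 CPM after PM, and 0.331 and 0.277 CPM after OI+PM. Treatments were again separate within each genotype, as they were in each step for 29.4% to 38.8% of all tested genes. The genotypes overlapped with vehicle and with OI+PM. The WT decrease after PM was a log2 fold change of -2.04 (SE 0.19), the smallest of the 3 values behind the choice. Angpt1 fell after PM in Acod1-/- cells to 26.8% of its vehicle level (log2 fold change -1.90, SE 0.185, edgeR adjusted p = 5.29e-05). It was below 1.5 CPM in every OI+PM library, so its OI step was tested through the groups where it is high. OI before PM took it down by a further log2 fold change of -3.26 (SE 0.322, edgeR adjusted p = 2.56e-05), or 9.55-fold.

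The OI+PM values of Angpt1 rest on few reads. The WT libraries held 12 and 2 counts (exact Poisson 95% intervals 6.2 to 21 and 0.242 to 7.22) and the Acod1-/- libraries 11 and 9 counts, and the intervals cover counting error only. These libraries were the lowest for this gene in both genotypes. In bulk RNA, fewer cells that express a gene and less RNA per cell cannot be told apart.

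After PM in Acod1-/- cells, 3 of 3 genes were called lower, against 1.31% of all genes tested. By size of decrease they ranked 6 (Smpd3), 10 (Nptx1) and 20 (Angpt1) of 11228 genes. The 95% interval of the log2 fold change was -2.97 to -2.22 for Smpd3, -2.63 to -2.07 for Nptx1 and -2.31 to -1.48 for Angpt1. These intervals overlapped between neighbours, so the order of the 3 genes was not resolved. Their WT libraries did not overlap between vehicle and PM, as the rule required. The same held in Acod1-/- cells, in which 38.8% of tested genes had all PM libraries below all vehicle libraries.

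**Figure D2:**
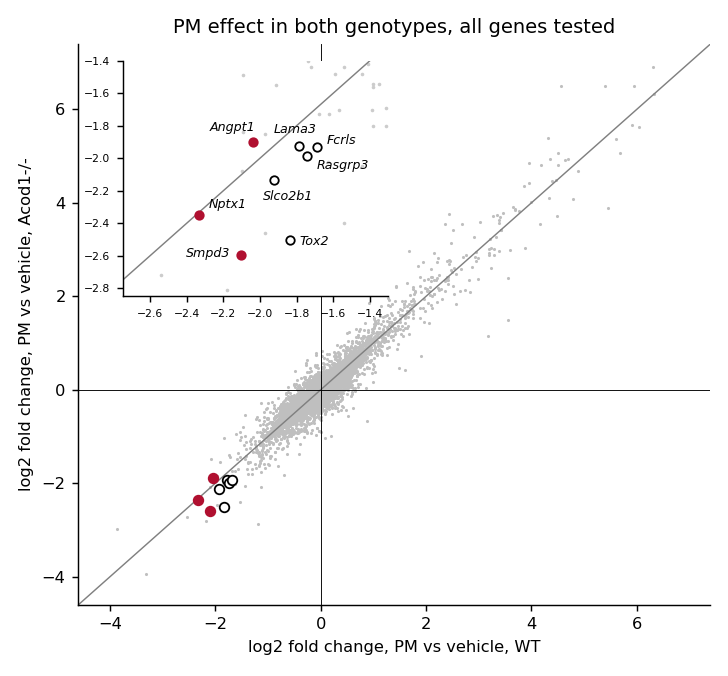
Log2 fold change after PM in WT (x axis) and Acod1-/- cells (y axis) for the 11228 genes tested, with Nptx1, Smpd3 and Angpt1 as filled red points, the next 5 genes by the same rule as open points, an enlarged view of them inset, and the line of equal change. The 2 axes share no library, and the 3 genes lie at -2.33 and -2.35, -2.11 and -2.60, and -2.04 and -1.90.

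Between OI+PM and PM in Acod1-/- cells, 7.98% of all genes tested were called lower. Nptx1, which was above 1.5 CPM on both sides, was among them. Smpd3 and Angpt1 had passed the filter only through the vehicle and PM libraries, where they are high, so their calls in this step and from vehicle to OI+PM are not counted with it. When every gene with 10 counts in total was tested, their log2 fold changes between OI+PM and PM were -1.22 (edgeR adjusted p = 0.00178) and -3.24 (edgeR adjusted p = 9.38e-06). The point estimates of the genes lay further apart in this step than after PM, and the difference between the steps was not tested. The 95% interval was -3.98 to -2.54 for Angpt1, -2.26 to -1.64 for Nptx1 and -1.76 to -0.72 for Smpd3, so that of Angpt1 did not overlap either of the others. WT values, given as a description because they share the PM libraries with the choice, were -3.45 for Angpt1, -1.93 for Nptx1 and -1.44 for Smpd3. From vehicle to OI+PM in Acod1-/- cells, where 9.25% of genes were called lower, Nptx1 fell 19.7-fold (edgeR adjusted p = 6.07e-09). Angpt1 fell 35.6-fold (edgeR adjusted p = 1.77e-07) and Smpd3 14.3-fold (edgeR adjusted p = 1.22e-07), both tested through the groups where they are high. In point estimates, Angpt1 fell the least after PM and the most over both steps.

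**Figure D3:**
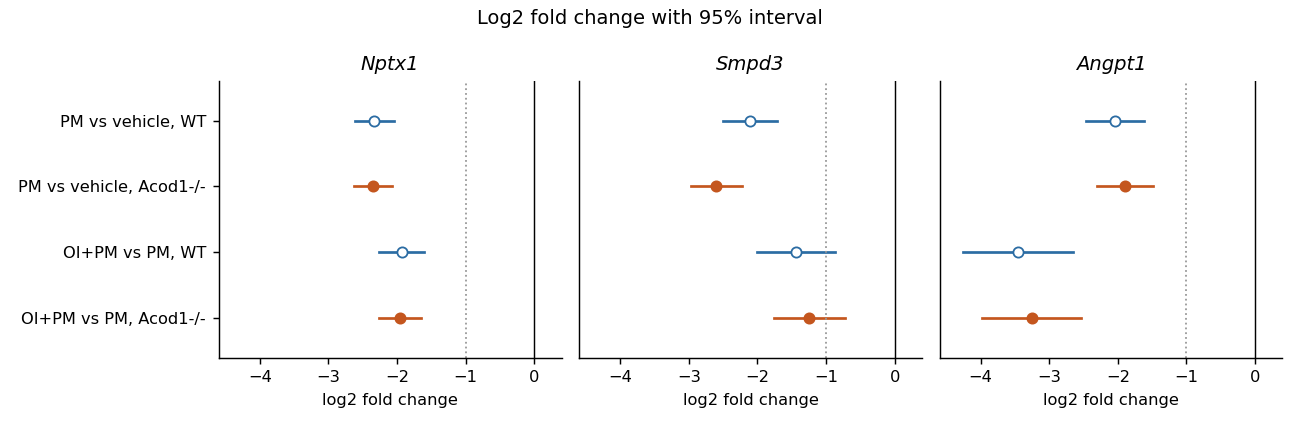
Log2 fold change (points) with its 95% interval (lines) for each gene after PM and with OI before PM, in WT (open blue) and Acod1-/- cells (filled orange), with a dotted line at a 2-fold decrease. Only the Acod1-/- values were tested, and the OI step of Angpt1, at -3.26, lies to the left of those of Nptx1 (-1.95) and Smpd3 (-1.24).

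Ranked by mean, the 6 groups stood in 1 order for Nptx1, Smpd3 and Angpt1, of which the rule fixed WT vehicle above WT PM. The share of all tested genes with this order was not computed. Acod1-/- vehicle was the highest, followed by WT vehicle, Acod1-/- PM, WT PM, Acod1-/- OI+PM and WT OI+PM. Neighbours in this order overlapped for Smpd3 between the OI+PM groups and for Angpt1 between the vehicle groups and between the OI+PM groups. Per kilobase of exon, Nptx1 in WT cells lay above 76.7% of tested genes with vehicle, above 32.4% after PM and above 13% after OI+PM. On the same per-kilobase scale Smpd3 went from 19.1% to 4.09% and 2.76%, and Angpt1 from 21.2% to 5.15% and 0.571%. Nptx1 was thus a gene of upper-middle level in resting cells, and the other two were low ones.

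Nptx1 was higher in each Acod1-/- library than in the WT libraries of the same treatment, as were 31.6% of tested genes with vehicle, 19.2% after PM and 24.3% after OI+PM. Between genotypes, Nptx1 did not pass the thresholds where it was tested. Under OI+PM, where the rule compared no levels, the log2 fold change of Acod1-/- over WT was 0.54 for Nptx1 (95% interval 0.19 to 0.89, edgeR adjusted p = 0.066). For Smpd3 it was 0.43 (95% interval -0.22 to 1.08, edgeR adjusted p = 0.319). The value of Angpt1, 0.45, had a 95% interval of -0.79 to 1.69 (edgeR adjusted p = 0.583). Nptx1 was thus not called, in a comparison that called 0.917% of genes in either direction. Smpd3 and Angpt1 were below 1.5 CPM in all 4 libraries compared, so they are not counted with it. The unadjusted p of the quasi-likelihood model fitted with edgeR across all genes was under 0.05 for Nptx1, as for 3281 of 11228 genes. DESeq2 gave Nptx1 a log2 fold change of 0.55 (DESeq2 Wald test, adjusted p = 0.017). This passed the p threshold but was under 2-fold, so Nptx1 was not called there either. The Angpt1 value turned on the WT library with 2 counts. Without it the log2 fold change was -0.24 (edgeR adjusted p = 0.867), and without the other WT library it was 2.11 (edgeR adjusted p = 0.0383). With vehicle the genotypes differed by 0.57 for Nptx1, 0.73 for Smpd3 and 0.11 for Angpt1, and after PM by 0.56, 0.24 and 0.25. These log2 fold changes are given without a test because their WT libraries took part in the choice. Whether the effect of PM on these genes differs between genotypes was likewise not tested.

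The rule left out genes with a low level. Of 127 genes lower after PM in WT cells (1.13% of genes tested), 59 met it. A further 7 genes fell by more than Angpt1 but averaged under 5 CPM, among them Ndnf at -3.86, Il1rl1 at -2.18 and Flt1 at -2.09. Just outside the choice were Slco2b1 (-1.93), an organic anion transporter gene, Tox2 (-1.83), Lama3 (-1.79), a laminin chain gene, Rasgrp3 (-1.74) and Fcrls (-1.69), all log2 fold changes in WT cells.

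These 5 neighbours fell after PM in Acod1-/- cells too, with log2 fold changes of -2.50 for Tox2 (edgeR adjusted p = 6.21e-07) to -1.93 for Lama3 (edgeR adjusted p = 0.000101). With OI before PM they went different ways. Fcrls was called lower at -2.06 (edgeR adjusted p = 2.87e-05), from 3.83 CPM to 0.912 CPM, which is below the filter, so it was tested through the groups where it is high. The other four were not called, with Slco2b1 at -0.75, Rasgrp3 at -0.89, Lama3 at -0.42 and Tox2 at 0.99. Of the 56 other genes that met the rule, 46 were called lower after PM in Acod1-/- cells, against 1.31% of all genes.

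Across the 12 libraries, log2 CPM of the 3 genes moved together, with a Pearson r of 0.986 for Nptx1 and Smpd3, 0.969 for Nptx1 and Angpt1, and 0.938 for Smpd3 and Angpt1. These are descriptions, since the libraries share their treatments. The rule also required each gene to fall from vehicle to PM in WT cells, which builds in part of the correlation. The tested genes most like Nptx1 were Arhgap18 (r = 0.997), Ehd4, St6gal1, Il1rl1 and Wwp1, the last at 0.993. For Smpd3 they were Cstf2 (r = 0.991), Hbegf, Sardh, Nptx1 itself and Arhgef7 (0.985). For Angpt1 they were Pros1 (r = 0.996), Arhgap17, Cblb, Nup155 and Itga6 (0.992). A high r does not mean a step of the same size. Arhgap18 had a log2 fold change of -0.83 after PM in Acod1-/- cells, and Pros1 one of -0.38, whereas Il1rl1, which encodes the receptor of interleukin 33, had -2.81. Likeness was sensitive to its measure. Over the 6 group means, 1, 0 and 1 of these 5 genes stayed among the top 5 for Nptx1, Smpd3 and Angpt1. With a prior count of 0.5, the numbers were 4, 5 and 1.

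Partners of Nptx1 were mostly below the filter. Of 6 other pentraxin genes, only Nptxr, the neuronal pentraxin receptor, was high enough to be tested, and of the 4 AMPA receptor subunit genes none was. Nptxr had a log2 fold change of -0.19 after PM in Acod1-/- cells (edgeR adjusted p = 0.328) and of -0.78 with OI before PM (edgeR adjusted p = 0.00203), which is under 2-fold. Its exons overlap those of Npcd, so its counts are uncertain.

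Other genes of sphingolipid metabolism were called at shares near those of all genes. Of 38 genes for sphingomyelinases, sphingomyelin synthases and the making and use of ceramide, 30 were tested, and 1 of them was called after PM in Acod1-/- cells, against 4.5% of all genes. It was Sgms2, a sphingomyelin synthase, which rose by a log2 fold change of 1.04 (edgeR adjusted p = 0.000487). The median log2 fold change over the 30 genes was 0.03, against -0.00024 over all genes tested. With OI before PM, 2 were called in these cells, and both fell, against 9.83% of all genes. These were Smpdl3b, a sphingomyelinase-like gene (log2 fold change -1.58, edgeR adjusted p = 1.17e-05), and Cers4, a ceramide synthase (-1.01, edgeR adjusted p = 2.76e-05). Over both steps Cers4 fell by 1.67, while Sgms2 (1.24), Sptlc2 (1.04) and Sphk1 (1.22) rose on the log2 scale, in a comparison that called 13.1% of all genes. Sphk1 was below the filter with vehicle, at a mean of 1.24 CPM, and was tested through the groups where it is high, so no count is set against that share.

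The angiopoietin, angiopoietin-like and VEGF genes were read beside Angpt1. Of 22 others, 11 were tested, and 1 was called after PM in Acod1-/- cells (4.5% of all genes), Flt1, a VEGF receptor, which had a log2 fold change of -1.84 (edgeR adjusted p = 6.91e-06). With OI before PM, calls in these cells went both ways, in a comparison that called 9.83% of all genes. Angpt2, the relative of Angpt1 that can block Tie2, fell by a log2 fold change of 1.07 (edgeR adjusted p = 0.00146), to a mean of 1.35 CPM that is below the filter. Angptl4, an inhibitor of lipoprotein lipase, rose by 2.20 (edgeR adjusted p = 9.32e-08), as did Angptl2 by 1.16 (edgeR adjusted p = 3.11e-07). The receptor genes were too low to be tested, with 0 to 2 counts of Tek and 1 to 6 counts of Tie1 per library. Angpt1 thus fell in cells with next to no transcript of its receptor.

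**Figure D4:**
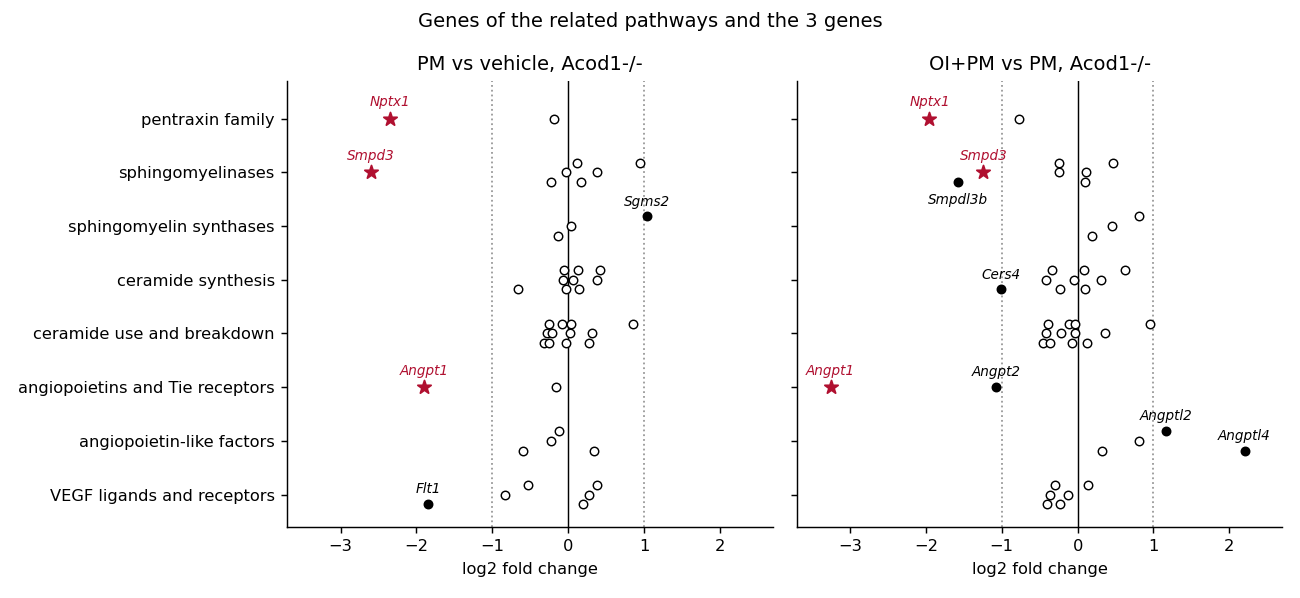
Log2 fold changes in Acod1-/- cells after PM (left) and with OI before PM (right) for the tested genes of each pathway list, with DEGs filled and named, other genes open, the 3 genes as red stars and dotted lines at 2-fold. After PM the listed genes lie between Flt1 at -1.84 and Sgms2 at 1.04, and with OI Angptl4 reaches 2.20.

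Markers of most other cell types were low or absent. None of 8 stromal, 7 mast cell, 5 T cell and 6 dendritic cell markers passed 1.5 CPM in any library. The stromal sum was 2.0 to 2.75 CPM in vehicle, 1.41 to 3.02 CPM in PM and 0.338 to 1.41 CPM in OI+PM libraries, with Lum at 0. The 8 neutrophil markers summed to 1.39 to 2.28 CPM in vehicle, 2 to 4.86 CPM in PM and 0.1015 to 1.41 CPM in OI+PM libraries. Vwf (86.3 to 147 CPM by group) made up nearly all of the endothelial list, while Tek had at most 2 counts. Pecam1 stepped down from vehicle to PM to OI+PM, at 1.16, 0.508 and 0.0906 CPM in Acod1-/- cells. In WT cells its means were 0.573, 0.416 and 0.173 CPM. Cdh5 did the same in Acod1-/- cells (0.717, 0.52 and 0.137 CPM) but not in WT cells (0.327, 0.416 and 0.03 CPM). Esam went the other way, at 0.0963, 0.218 and 1.75 CPM in Acod1-/- cells and 0.0509, 0.502 and 4.14 CPM in WT cells. Runx2 led the osteoblast list and Cd79b the B cell list, without the other markers of those cells above 1.5 CPM. Cd79b had means of 2.51, 2.82 and 1.0 CPM with vehicle, PM and OI+PM in Acod1-/- cells. In WT cells they were 3.13, 3.23 and 1.06 CPM. Runx2 had 7.0, 6.71 and 18.6 CPM in Acod1-/- cells and 9.3, 8.57 and 18.3 CPM in WT cells. Of 6 megakaryocyte markers, Pf4 and Ppbp passed 1.5 CPM, and the summed level was 198.9 to 296.9 CPM in vehicle, 528.2 to 687.9 CPM in PM and 599 to 978.4 CPM in OI+PM libraries, with Gp1bb at 0. Of 6 osteoclast markers, 4 passed, Acp5, Dcstamp, Ctsk and Ocstamp, and Calcr was at 0. Ocstamp was lower after PM than with vehicle, at means of 0.234 and 1.74 CPM in Acod1-/- cells and 0.158 and 0.366 CPM in WT cells. The osteoclast sum was 86.2 to 131.9 CPM in vehicle, 137.2 to 230.6 CPM in PM and 66.5 to 98.8 CPM in OI+PM libraries. Of 5 stem and progenitor cell markers, 2 passed 1.5 CPM, Cd34 and Meis1. The summed level of the 5 was 4.89 to 6.03 CPM in vehicle libraries, 2.54 to 3.48 CPM in PM libraries and 2.25 to 3.19 CPM in OI+PM libraries, with Flt3 at 0 in the vehicle libraries of both genotypes. Cd34 itself moved in the order of the 3 genes, with means of 2.99, 1.08 and 0.397 CPM in Acod1-/- cells and 1.93, 0.904 and 0.238 CPM in WT cells. Meis1 did not follow that order, with means of 2.46, 1.92 and 2.54 CPM in Acod1-/- cells and 3.05, 1.94 and 2.25 CPM in WT cells. The part of any of these markers in the decreases was not tested.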

How the data were processed

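RNA from WT and Acod1-/- BMDMs was sequenced as single-end reads in 12 libraries. The authors mapped reads to GRCm38 with STAR 2.5.3a and deposited raw counts per gene made with featureCounts, without normalization. The annotation release and the handling of strand and of reads on shared exons are not given in the sources used here. Of 48795 Ensembl identifiers, 48435 were matched to a symbol; positions, exonic lengths and overlaps came from GENCODE vM21.

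Counts were scaled by TMM and fitted with the quasi-likelihood method of edgeR 4.0.16 (R 4.3.3), with a mean per group over all 12 libraries and genes above 1.5 CPM in at least 2 libraries. P-values were adjusted by Benjamini-Hochberg over 11228 genes. A standard error is the absolute log2 fold change over the root of the F statistic. The fit was tested on simulated data. Likeness was Pearson r of log2 CPM with a prior count of 2.

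The 3 genes and all gene lists were chosen with earlier results of these data known. Named genes were the 3, those sharing their exons, the next 5 of the same rule, the 5 most alike of each, list genes passing the thresholds (at most 4 per list and comparison), and Acod1. Ndnf, Il1rl1 as a larger decrease, Npcd and the leading markers were named after their values were seen. Promoter and protein sequences of the 3 genes were not analysed here.

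Alternatives were RLE or total count scaling, other filters, DESeq2 1.42.0, fits on fewer libraries, a replicate block, a gene length correction (lowess, span 0.3), no fold threshold and leaving out each library.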

Additional observations from a re-analysis of the deposited data

How the results depend on the processing

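The 12 values of Nptx1, Smpd3 and Angpt1 in the 4 tested comparisons each had 12 to 14 alternatives. Of these 157 alternative values, 154 kept the direction and the side of the thresholds. The 3 exceptions left out a library. Without each library in turn, Smpd3 ranged from -1.63 to -0.94 (log2) between OI+PM and PM in Acod1-/- cells, and Angpt1 from -0.24 to 2.11 between the genotypes under OI+PM. The latter rests on WT libraries of 12 and 2 counts, and the cause of the gap between them was not tested. For Nptx1 in the same comparison the adjusted p ran from 0.00492 to 0.39, and no alternative reached 2-fold.

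Asking for more than 1.5 CPM in each of the 12 libraries removed Smpd3 and Angpt1 and left 260, 581, 871, 29 and 227 DEGs (after PM, with OI before PM and from vehicle to OI+PM in Acod1-/- cells, between genotypes under OI+PM, and after PM in WT cells), against 505, 1104, 1475, 103 and 466. Without a fold threshold the counts were 2684, 3881, 5547, 782 and 2782. The genotype comparison gave 2 DEGs on its own 4 libraries and from 38 to 347 without each library in turn. Total count scaling moved every log2 fold change from vehicle to OI+PM in Acod1-/- cells by -0.149 and changed no call of the 3 genes. With the gene length correction, Nptx1 between genotypes under OI+PM was 0.52 (adjusted p 0.0389), still under 2-fold.

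With the replicate number as a block, the decreases after PM in Acod1-/- cells were -2.35 for Nptx1, -2.60 for Smpd3 and -1.90 for Angpt1, the DEGs numbered 505, 1107, 1475, 106 and 472 in the order above, and no call of the 3 genes changed. The numbers were shared by 2 pairs per comparison, and the deviations of same-numbered libraries correlated at -0.0601, -0.0945, -0.0358, 0.251 and 0.227 in the same order. The correlation was 0.733 from PM to OI+PM and 0.237 from vehicle to OI+PM in WT cells, and -0.0471 with vehicle and -0.412 after PM between genotypes. No label ties the numbers to a shared mouse or day, and they were not taken as pairs.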

Other observations

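Some genes had a larger decrease after PM in WT cells than Angpt1 but a low level, and those named here were chosen after their values were seen. On their WT means, Myh15, Ndnf, Hs3st1 and Il1rl1 were above 1.5 CPM with vehicle and below it after PM, so their changes are given as descriptions without a test. After PM in Acod1-/- cells, the log2 fold change was -3.94 for Myh15, a myosin heavy chain gene, and -2.98 for Ndnf, which encodes a secreted neurotrophic factor. It was -2.72 for Hs3st1, a heparan sulfate sulfotransferase gene, and -2.81 for Il1rl1. With OI before PM in Acod1-/- cells, Il1rl1 had a further log2 fold change of -1.86 and Hs3st1 one of -1.56, whereas Ndnf had -0.07 and Myh15 had 0.25.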
